A study of Saccharomyces cerevisiae with 6 samples.

Results

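The genes described here encode the enzymes of central carbon metabolism in the budding yeast Saccharomyces cerevisiae: glycolysis, alcoholic fermentation, gluconeogenesis, the pentose phosphate pathway and the route from acetaldehyde to acetyl-CoA, with GCR2, a co-activator of glycolytic genes. They were taken by symbol from a list of 44 genes. Of these, 43 had a probe set that the platform annotation gives to 1 gene, and 42 passed the filter on dim probe sets, of 5257 genes tested in all. TDH2 had no probe set of its own and FBP1 was too dim to be tested. Their transcripts were measured in the wild-type strain Y255 and in the isogenic strain Y2685, in which CBC2 is deleted, on Affymetrix Yeast Genome S98 arrays, with 3 arrays of total RNA for each strain. All cultures were grown in SC (synthetic complete) medium at 30 °C to log phase, an OD600 of 1. The CBC2 protein is the smaller part of the nuclear cap-binding complex, which binds the 5′ cap of new transcripts of RNA polymerase II. The labels do not say whether the arrays of a strain came from separate cultures; the spread behind the p-values may therefore be partly technical. Total RNA of a culture was measured, so fewer cells that express a gene and less RNA per cell cannot be told apart.

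Glycolysis splits glucose into pyruvate, and in yeast growing on glucose pyruvate decarboxylase and alcohol dehydrogenase turn most of that pyruvate into ethanol. Gluconeogenesis runs the route backwards on non-fermentable carbon and is shut off by glucose, while the pentose phosphate pathway makes NADPH in its oxidative branch and exchanges sugar phosphates with glycolysis in its non-oxidative branch. Many steps are encoded by a highly expressed gene and by one or more isozyme genes that are induced when glucose runs low, which is why isozymes are compared below.

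The deposited intensities were quantile normalised, and a gene was called where limma's p, adjusted by Benjamini-Hochberg over all 6956 tested probe sets, was under 0.05. A positive log2 fold change means a higher level in the deletion strain. The label of the deletion strain was checked with CBC2 itself, which had normalised intensities of 882, 840.3 and 763 in the wild type and was at the floor of 8.25 on each deletion array. The trimmed means of the deposited intensities ranged over 1.88-fold between arrays. Arrays of the same strain correlated at 0.980 to 0.988 (log2 values), and arrays of different strains at 0.951 to 0.969. A second fluidics station washed wild-type replicate 3 and all deletion arrays, apart from wild-type replicates 1 and 2, and deletion replicate 2 was scanned on a later day than the rest. A fit with the station as a block therefore rests on wild-type replicate 3 as the only wild-type array beside the deletion arrays. Among the arrays of the main scan day, the wild-type arrays were scanned before the deletion arrays, so scan order and strain cannot be told apart. The 3′ to 5′ signal ratio of SPT15, a measure of RNA integrity, was 2.48 to 3.74 in the wild type and 3.67 to 5.13 in the deletion strain, while that of ACT1 was 1.15 to 1.47 and 1.02 to 1.42; their part in the results was not tested.

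In the strain without CBC2, the genes that phosphorylate glucose and most genes of the non-oxidative pentose phosphate branch rose, as did PYK2, ADH4, PYC1, ALD4 and ALD6, and ADH2 fell. The main line of glycolysis between glucose 6-phosphate and ethanol was not called by limma at any of its 14 tested genes (PGI1, PFK1, PFK2, FBA1, TPI1, TDH1, TDH3, PGK1, GPM1, ENO1, ENO2, CDC19, PDC1 and ADH1), whose log2 fold changes ran from -0.33 to 0.31; at an unadjusted p under 0.05, 1 of them was lower and 0 were higher. In all, 12 of the 42 tested genes rose, 1 fell and 29 were not called. Over all tested genes, 32.6% were called, 16.3% higher and 16.3% lower, so the total of 13 called genes (31.0%) was near the background, with 28.6% higher and 2.38% lower. Changes of at least 2-fold were called for 5 of the 42 genes, against 10.4% of all genes. The strains did not overlap at 18 of the 42 genes, against 49.8% of all genes, with the deletion arrays higher at 14 (24.0% of all genes) and lower at 4 (25.7% of all genes). The median log2 fold change of the 42 genes was 0.12, and that of all tested genes was 0.00.

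**Figure D1:**
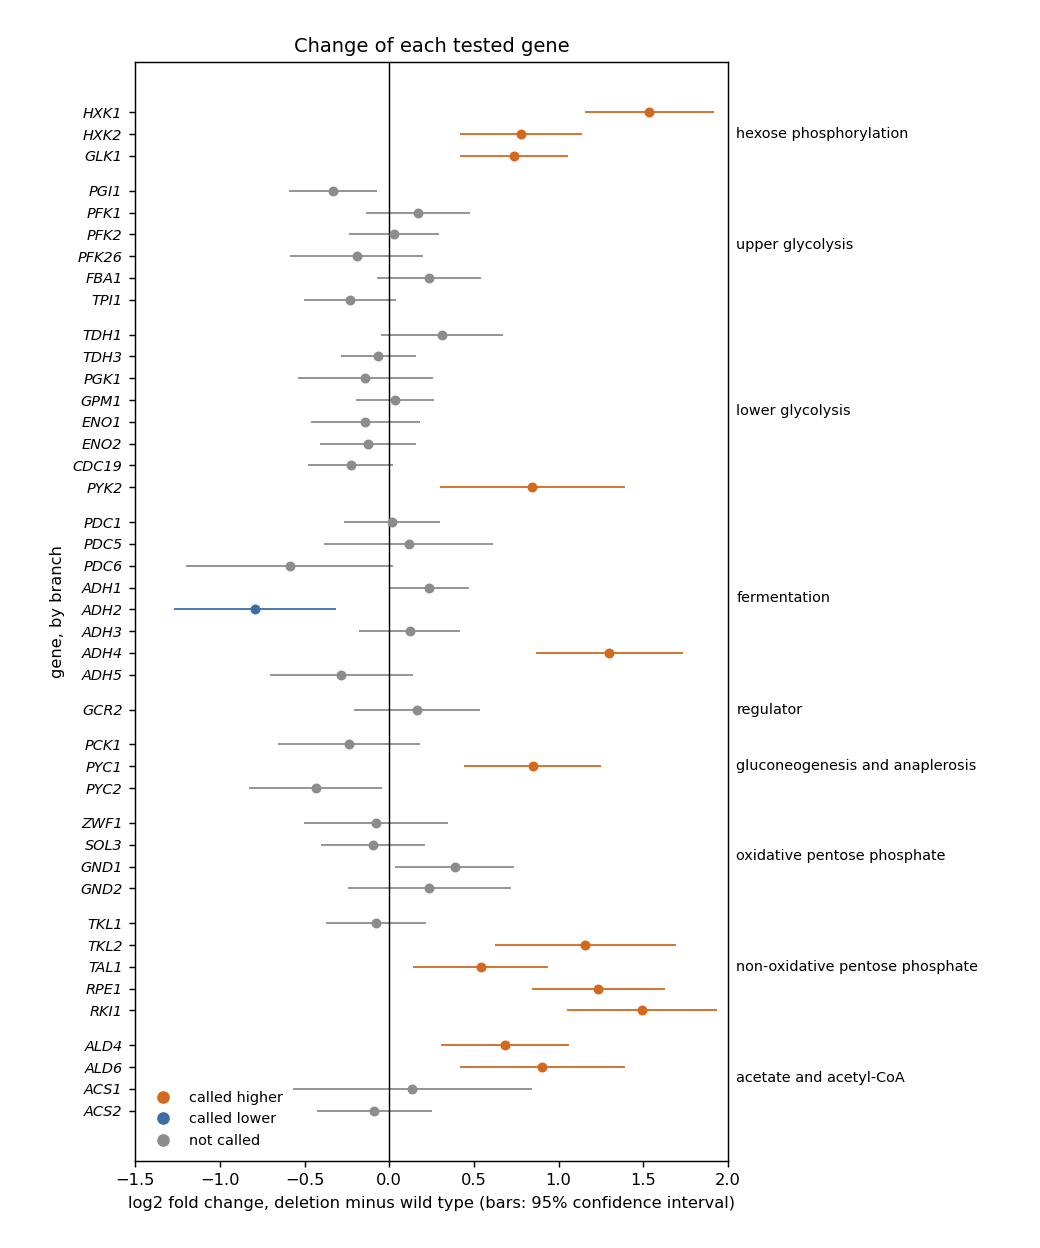
Log2 fold change (deletion minus wild type, horizontal axis) of each of the 42 tested genes, ordered by branch, from 6 arrays; points are limma's estimates and bars their 95% confidence intervals. HXK1 at 1.54 and RKI1 at 1.49 stand highest, ADH2 at -0.79 lowest, and the genes of upper glycolysis all lie between -0.33 and 0.23.

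The direction of many of the bright genes, though not all, depended on how the arrays were scaled. Of the 42 genes, 22 were in the brightest 5% of probe sets, and of these HXK2 and GLK1 rose and 20 were not called, while 39.6% of all 308 genes in that range were called. Of the 20 genes outside that range, 11 were called. After quantile normalisation the median log2 fold change was -0.07 for the 22 bright genes and -0.07 for all 308 genes in their range. With the arrays scaled to one median instead, it was 0.33 and 0.32, and 17 of the 42 genes were called higher and 1 lower, FBA1, TDH1, PDC1, ADH1 and GND1 now among the risers. Without any scaling of the deposited values, HXK1 and ADH4 alone were called, and the median log2 fold change over the tested probe sets was then -0.26, compared with -0.01 after quantile normalisation. At each of the 13 called genes the direction was the same on all 3 scales. Quantile normalisation gives an extremely bright probe set a value set by its rank alone, and the TDH3 probe set ranked between 2 and 5 among all probe sets on the 6 arrays.

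**Figure D2:**
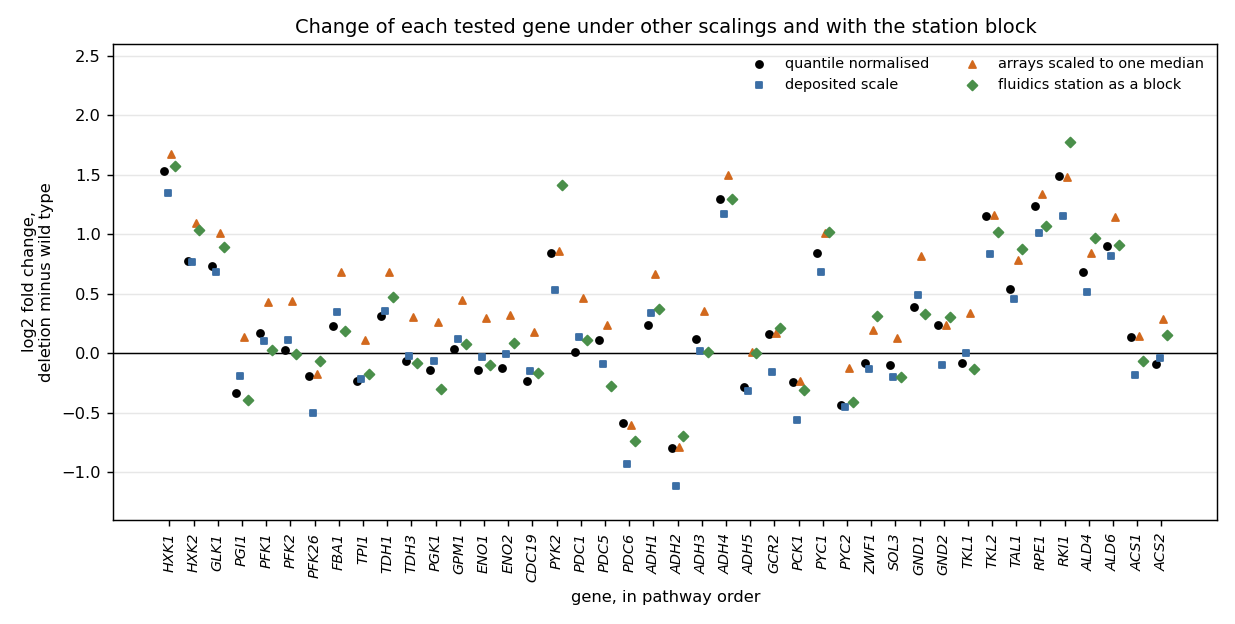
Log2 fold change (deletion minus wild type, vertical axis) of each tested gene in pathway order, after quantile normalisation, on the deposited scale, with the arrays scaled to one median, and with the fluidics station as a block. With one median the genes from PFK1 to CDC19 shift upwards, as at TDH3 from -0.07 to 0.31, while HXK1 stays between 1.34 and 1.67 and ADH2 stays below 0 under all 4.

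Hexose phosphorylation, the entry of glucose into metabolism, was the branch in which every tested gene rose. HXK1 (YFR053C) encodes hexokinase 1, the isozyme that is repressed by glucose. Its normalised intensity was 398, 536 and 444 in the wild type, against 1412, 1145 and 1429 in the mutant. All deletion arrays lay above all wild-type arrays, and the mean rose from 459 ± 70.2 to 1328 ± 159 (SD, n = 3 each; log2 fold change 1.54, SE 0.17, limma adjusted p = 0.000309). HXK1 was called under every alternative run, with log2 fold changes from 1.34 to 1.67, and with the station block it was 1.57, adjusted p = 0.0123. HXK2 (YGL253W) encodes hexokinase 2, the main enzyme on glucose, which also takes part in glucose repression. It had 2228, 2476 and 1793 in the wild type, against 4218, 3279.9 and 3599 in the mutant (log2 fold change 0.78, SE 0.16, limma adjusted p = 0.00608), again with no overlap. GLK1 (YCL040W), the glucokinase gene, had 1966, 1910.3 and 1649 in the wild type, against 3053, 2738 and 3413 in the mutant (log2 fold change 0.73, SE 0.14, limma adjusted p = 0.00454). HXK2 and GLK1 thus rose by similar amounts, 1.71-fold and 1.66-fold, and HXK1 by 2.90-fold. With the station block HXK2 was at 1.04, adjusted p = 0.0212 and GLK1 at 0.89, adjusted p = 0.0306. On the deposited scale both lost the call (HXK2 0.77, adjusted p = 0.124; GLK1 0.69, adjusted p = 0.194).

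In upper glycolysis, which carries glucose 6-phosphate to the triose phosphates, none of 6 genes was called by limma, and PGI1 was the only gene at an unadjusted p under 0.05, 1 of the 6. PGI1 (YBR196C), the phosphoglucose isomerase gene, came closest. It had 5614, 5880.5 and 6135 in the wild type, against 4988, 4317 and 4719.9 in the mutant, so the strains did not overlap, but its log2 fold change of -0.33 (95% confidence interval -0.59 to -0.07) had an adjusted p of 0.0529. Under 2 alternatives, array weights and the dimmest 50% left out, PGI1 was called lower, and scaling to one median gave 0.14, adjusted p = 0.6. PFK1 and PFK2, the subunits of phosphofructokinase, were at 0.17 (interval -0.14 to 0.48) and 0.03 (interval -0.24 to 0.29). PFK26, which makes fructose 2,6-bisphosphate, an activator of phosphofructokinase, was at -0.19 (interval -0.59 to 0.20). FBA1, the aldolase gene, was at 0.23 (interval -0.07 to 0.54). TPI1, the triose phosphate isomerase gene, was at -0.23 (interval -0.50 to 0.04), with the strains not overlapping.

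Lower glycolysis, from glyceraldehyde 3-phosphate to pyruvate, had 1 called gene among 8. PYK2 (YOR347C) encodes the minor pyruvate kinase, which is repressed by glucose. It had 214, 232 and 123 in the wild type, against 349, 361 and 280.2 in the mutant and rose from 189.7 ± 58.7 to 329.9 ± 43.5 (SD, n = 3 each; log2 fold change 0.84, SE 0.25, limma adjusted p = 0.0261). Replicate 3 had the lowest wild-type value, and leaving it out gave 0.56, adjusted p = 0.07. In all, the PYK2 call was lost under 6 of 19 alternatives, the deposited scale and no filter on dim probe sets among them. It was also lost without deletion replicate 1 (0.80, limma adjusted p = 0.0802) and without deletion replicate 2 (0.77, limma adjusted p = 0.0761). A scan day term gave the latter change again (0.77, adjusted p = 0.0762), since deletion replicate 2 was the only array of its day. CDC19, the major pyruvate kinase gene, was at -0.23 (interval -0.48 to 0.02). The glyceraldehyde 3-phosphate dehydrogenase genes TDH1 and TDH3 were at 0.31 (interval -0.05 to 0.67) and -0.07 (interval -0.29 to 0.16). PGK1, the phosphoglycerate kinase gene, was at -0.14 (interval -0.54 to 0.26) and GPM1, the phosphoglycerate mutase gene, at 0.03 (interval -0.19 to 0.26). The enolase genes ENO1 and ENO2 were at -0.14 (interval -0.46 to 0.18) and -0.13 (interval -0.41 to 0.16). TDH3, ENO1 and ENO2 were read from probe sets with a suffix that marks an incomplete or shared set. Their close sequence relatives may contribute to the signal, which was not tested.

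Fermentation had 1 rise and 1 fall among 8 genes, both in alcohol dehydrogenase genes. ADH4 (YGL256W) encodes an alcohol dehydrogenase that is unrelated in sequence to the others and is known to respond to zinc shortage. It had 786, 701 and 741 in the wild type, against 2189, 1349 and 2064 in the mutant (log2 fold change 1.30, SE 0.19, limma adjusted p = 0.00127), a 2.46-fold rise with no overlap. ADH4 was called under every alternative run, and with the station block it was at 1.30, adjusted p = 0.0309. A second ADH4 probe set had deposited intensities of only 19.0 to 32.7, and averaging the probe sets gave 0.67, adjusted p = 0.025. ADH2 (YMR303C), the glucose-repressed enzyme that oxidises ethanol, was the only gene of the 42 that fell. It had 133, 128 and 118 in the wild type, against 93.2, 74.2 and 55.7 in the mutant (log2 fold change -0.79, SE 0.22, limma adjusted p = 0.0199), 1.73-fold lower with no overlap. Its call was lost under 5 of 18 alternatives, the deposited scale and no filter on dim probe sets among them. The ADH2 call was lost with the station block (-0.69, adjusted p = 0.194), and likewise on leaving out wild-type replicate 1 (-0.76, adjusted p = 0.0551) or wild-type replicate 2 (-0.78, adjusted p = 0.0541). ADH1 (YOL086C), the main enzyme of ethanol formation, had 9982, 9982 and 8629 in the wild type, against 11089, 10943 and 11565 in the mutant. The strains did not overlap at ADH1, but its log2 fold change of 0.24 was not called (adjusted p = 0.116). The mitochondrial ADH3 was at 0.12 (interval -0.18 to 0.42) and ADH5 at -0.28 (interval -0.70 to 0.14). Of the pyruvate decarboxylase genes, PDC1 was at 0.02 (interval -0.27 to 0.30), PDC5 at 0.12 (interval -0.38 to 0.62) and PDC6 at -0.59 (interval -1.20 to 0.02), the interval with the lowest bound among the genes not called. GCR2, which works with the activator Gcr1 at glycolytic promoters, was at 0.17 (interval -0.21 to 0.54).

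In gluconeogenesis and pyruvate carboxylation, 1 of 3 tested genes rose, and the pyruvate carboxylase genes had changes of opposite sign. PYC1 (YGL062W) had 553, 760.5 and 539 in the wild type, against 1199, 961 and 1143 in the mutant and rose from 617 ± 124 to 1101 ± 125 (SD, n = 3 each; log2 fold change 0.85, SE 0.18, limma adjusted p = 0.00711). PYC2 (YBR218C) had 3220.1, 3007 and 3034 in the wild type, against 2728, 2519 and 1730.0 in the mutant. The PYC2 values did not overlap, with the deletion arrays lower, but the log2 fold change of -0.44 (interval -0.83 to -0.04) was not called (adjusted p = 0.0844). With the station block PYC1 was at 1.02, adjusted p = 0.0431. PCK1, the phosphoenolpyruvate carboxykinase gene, was at -0.24 (interval -0.66 to 0.18). FBP1 (YLR377C), the fructose 1,6-bisphosphatase gene, was not tested because its probe set was among the dimmest 25%. Its normalised intensity was 31.5, 28.6 and 32.2 in the wild type, against 19.6, 14.6 and 25.9 in the mutant, with every deletion array below every wild-type array. FBP1 and PCK1 are the classic glucose-repressed genes of this route, and the mean of neither was higher in the deletion strain.

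Of the 44 genes, those called in the pentose phosphate pathway were RKI1, RPE1, TKL2 and TAL1, all of the non-oxidative branch; SOL4, an oxidative-branch gene outside the 44, is given further on. RKI1 (YOR095C), the ribose 5-phosphate isomerase gene, had 56.0, 56.1 and 41.6 in the wild type, against 160.5, 139.8 and 129.7 in the mutant (log2 fold change 1.49, SE 0.20, limma adjusted p = 0.000733), a 2.81-fold rise with no overlap. RPE1 (YJL121C), the ribulose 5-phosphate epimerase gene, had 436, 374 and 479.8 in the wild type, against 934, 901 and 1212 in the mutant (log2 fold change 1.23, SE 0.18, limma adjusted p = 0.00101), a 2.35-fold rise with no overlap. These enzymes act side by side on ribulose 5-phosphate, the product of the oxidative branch. With the station block RKI1 was at 1.78, adjusted p = 0.0101 and RPE1 at 1.07, adjusted p = 0.0349, and on the deposited scale both fell short of the threshold (RKI1 1.16, adjusted p = 0.0515; RPE1 1.01, adjusted p = 0.0739).

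TKL2 (YBR117C), the minor transketolase gene, had 32.7, 26.3 and 33.7 in the wild type, against 82.6, 72.0 and 54.1 in the mutant (log2 fold change 1.16, SE 0.24, limma adjusted p = 0.00613), with no overlap. TKL2 was dim, at the 31.8th percentile of mean log2 brightness, and 3 probe sets carried its name alone. On the deposited scale its call was lost, and the strains overlapped (36.8, 34.3 and 29.2 in the wild type, against 91.4, 70.5 and 32.6). With the station block the TKL2 call was lost (1.02, adjusted p = 0.102). TAL1 (YLR354C), the transaldolase gene, had 1841, 1704 and 1245 in the wild type, against 2019, 2268 and 2619 in the mutant (log2 fold change 0.54, SE 0.18, limma adjusted p = 0.0439), with no overlap but with a call that was lost under 11 of 19 alternatives, among them leaving out any of 5 arrays (log2 fold changes from 0.37 to 0.63, adjusted p from 0.0566 to 0.143) and the replicate block (0.54, adjusted p = 0.0812). TKL1, the major transketolase gene, was at -0.08 (interval -0.37 to 0.22). None of the 4 tested genes of the oxidative branch was called by limma, with 1 of them, GND1, at an unadjusted p under 0.05. ZWF1, the glucose 6-phosphate dehydrogenase gene, was at -0.08 (interval -0.50 to 0.35) and SOL3, the 6-phosphogluconolactonase gene, at -0.10 (interval -0.40 to 0.21). GND1, the major 6-phosphogluconate dehydrogenase gene, had 4660.4, 3048 and 3983 in the wild type, against 4899, 5025 and 5132 in the mutant. The GND1 strains did not overlap, with a log2 fold change of 0.39 that was not called (adjusted p = 0.0876), and its isozyme GND2 was at 0.24 (interval -0.25 to 0.72).

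On the route from acetaldehyde to acetyl-CoA, the dehydrogenase genes ALD4 and ALD6 rose, the synthetase genes were not called, and ALD5, a mitochondrial dehydrogenase gene outside the 44, fell. ALD6 (YPL061W) encodes the cytosolic acetaldehyde dehydrogenase, a source of NADPH. It had 1161, 1527 and 1325 in the wild type, against 2922, 3039 and 1733 in the mutant (log2 fold change 0.90, SE 0.22, limma adjusted p = 0.0126). Its call was lost under 5 of 19 alternatives, the deposited scale and no filter on dim probe sets among them. Deletion replicate 3 lay well below the other deletion arrays, and the ALD6 call was lost without deletion replicate 1 (0.79, adjusted p = 0.0532), with the station block (0.91, adjusted p = 0.117) and when a very dim second probe set was averaged in (0.45, adjusted p = 0.0757). ALD4 (YOR374W), the mitochondrial enzyme, had 903, 805 and 633 in the wild type, against 1176, 1196 and 1352 in the mutant (log2 fold change 0.68, SE 0.17, limma adjusted p = 0.014), with no overlap, and with the station block it was at 0.97, adjusted p = 0.0285. ALD5 (YER073W) had 2379, 2796 and 2479.6 in the wild type, against 1582, 1893 and 1773 in the mutant (log2 fold change -0.54, SE 0.14, limma adjusted p = 0.0155), with no overlap. The ALD5 call was lost under 5 of 19 alternatives, among them the station block (-0.51, adjusted p = 0.146), scaling to one median (-0.28, adjusted p = 0.204), leaving out wild-type replicate 2 (-0.48, adjusted p = 0.0551) and leaving out deletion replicate 1 (-0.47, adjusted p = 0.0595). ACS1, the acetyl-CoA synthetase gene that is repressed by glucose, was at 0.14 (interval -0.57 to 0.84), and ACS2, the form used on glucose, at -0.09 (interval -0.43 to 0.25). Over all branches, the 95% confidence interval lay within a 2-fold change either way for 28 of the 29 genes not called and within 1.5-fold for 18 of them. These intervals hold after quantile normalisation and do not cover the choice of scaling. With the arrays scaled to one median, TDH3 was at 0.31 and ENO2 at 0.33, each above the upper bound of its interval, 0.16.

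**Figure D3:**
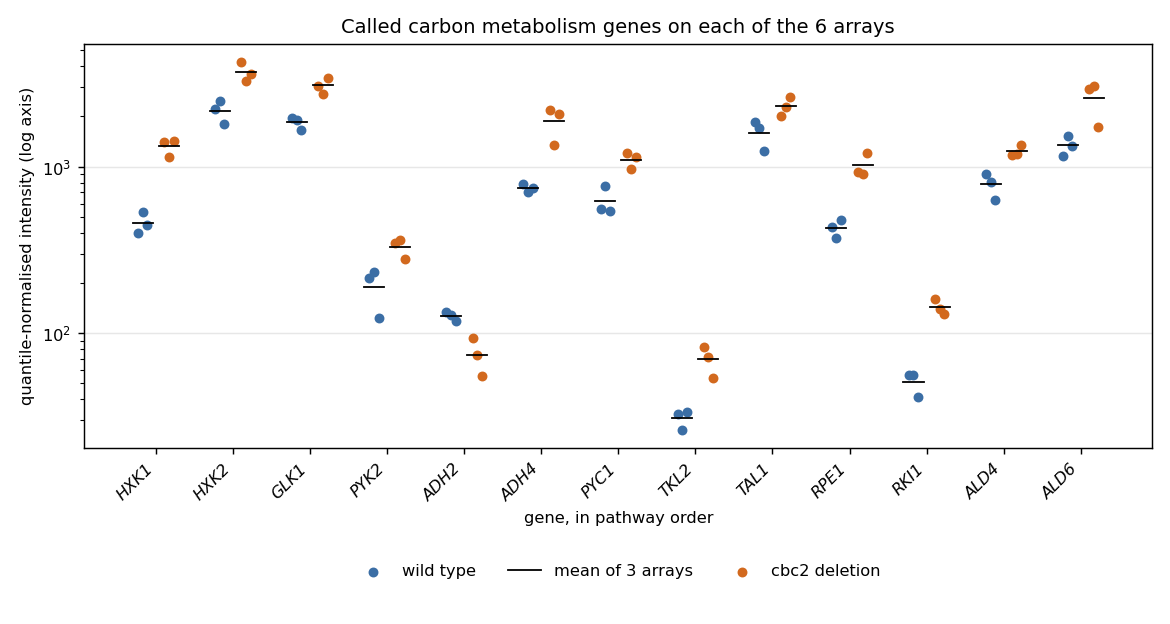
Quantile-normalised intensity (log axis) of the 13 called genes on each of the 6 arrays, with a bar for the mean of each strain's 3 arrays. Deletion points lie above all wild-type points for 12 genes and below them for ADH2; heights of different genes are not comparable, since each is read by its own probes.

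Isozyme and subunit pairs were compared by the log2 ratio of their quantile-normalised values within each array. Of 20 listed pairs, the 2 with TDH2 could not be read, and 18 were compared with an exact two-sided permutation test. The smallest p that 3 arrays against 3 allow is 0.1, so no pair could pass the threshold, and the lowest adjusted p over the 18 pairs was 0.225. The ratio did not overlap between strains at 8 pairs, higher in the deletion at 6 and lower at 2, and it overlapped at 10; single genes did not overlap at 49.8% of all tested genes, and the share over other gene pairs was not computed. The size of a ratio's change depended on the normalisation. On the deposited scale it was 0.68 for PYK2 over CDC19, 0.83 for TKL2 over TKL1, -1.45 for ADH2 over ADH1, -1.06 for PDC6 over PDC1, -0.32 for ADH3 over ADH1 and -0.58 for GND2 over GND1.

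The ratio of a minor or glucose-repressed isozyme to its partner did not change in the same way at all pairs. It was higher in the deletion strain, without overlap, at HXK1 over HXK2, PYK2 over CDC19 and TKL2 over TKL1. At ADH2 over ADH1 it was lower without overlap, and at GND2 over GND1 and ACS1 over ACS2 the strains overlapped. Relative to the wild-type mean, the log2 ratio of HXK1 over HXK2 was -0.25, 0.03 and 0.22 in the wild type, against 0.66, 0.72 and 0.90 in the mutant, a change of 0.76 (SE 0.16) (exact p = 0.1, adjusted p = 0.225). The ratio of TKL2 over TKL1 was 0.12, -0.20 and 0.08 in the wild type, against 1.35, 1.25 and 1.10 in the mutant, a change of 1.23 (SE 0.13) with the same p. With a pseudocount of 16 in place of the floor, this ratio changed by 0.93. That of PYK2 over CDC19 changed by 1.07 (SE 0.32). HXK1 over GLK1 changed by 0.80 (SE 0.16), while HXK2 over GLK1 changed by 0.04 (SE 0.14) (exact p = 0.8). For pyruvate carboxylase the ratio of PYC1 over PYC2 was -0.20, 0.36 and -0.15 in the wild type, against 1.15, 0.95 and 1.74 in the mutant, a change of 1.28 (SE 0.30).

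Against ADH1, the other alcohol dehydrogenase genes differed in both directions. ADH4 over ADH1 was 0.01, -0.15 and 0.14 in the wild type, against 1.34, 0.66 and 1.19 in the mutant, a change of 1.06 (SE 0.22). ADH2 over ADH1 was 0.01, -0.05 and 0.04 in the wild type, against -0.66, -0.97 and -1.46 in the mutant, a change of -1.03 (SE 0.24). ADH5 over ADH1 changed by -0.52 (SE 0.21) without overlap, and ADH3 over ADH1 by -0.12 (SE 0.13) with overlap (exact p = 0.6). Each of the 8 pairs without overlap had an exact p of 0.1.

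At the other pairs the strains overlapped. The changes were 0.14 (SE 0.13) for PFK1 over PFK2, 0.38 (SE 0.21) for TDH1 over TDH3, -0.02 (SE 0.20) for ENO1 over ENO2, 0.10 (SE 0.27) for PDC5 over PDC1 and -0.60 (SE 0.34) for PDC6 over PDC1. For GND2 over GND1 the change was -0.15 (SE 0.36), for ALD4 over ALD6 -0.22 (SE 0.39) and for ACS1 over ACS2 0.23 (SE 0.55). The standard errors of these changes ran up to 0.55, at ACS1 over ACS2.

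**Figure D4:**
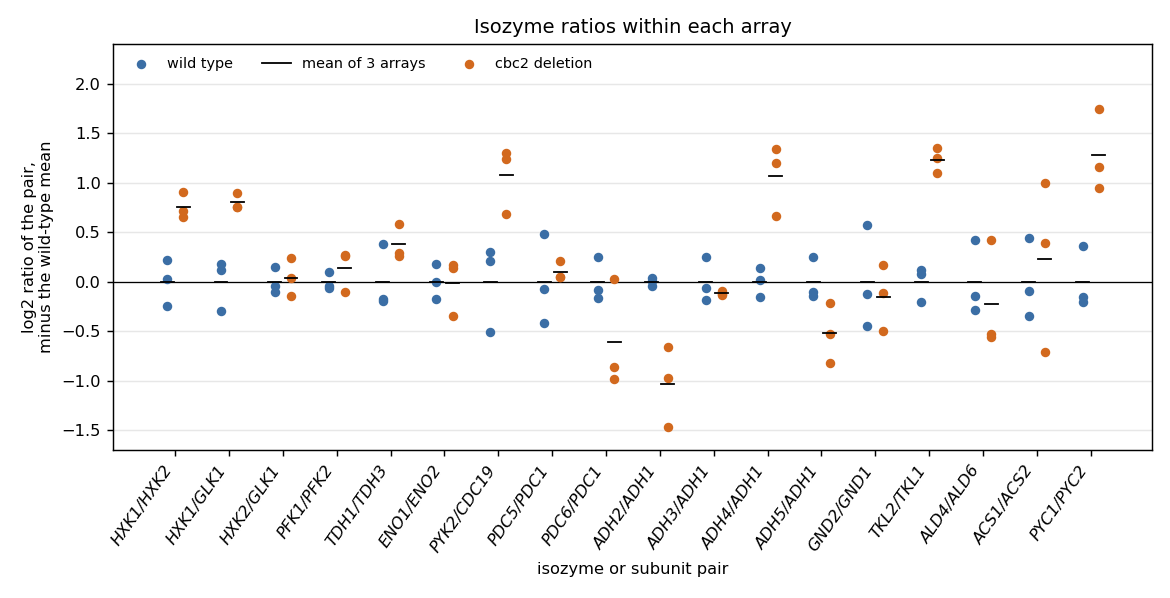
Log2 ratio of each of 18 isozyme or subunit pairs within an array, minus the wild-type mean of that pair (vertical axis), for the 3 arrays of each strain, with a bar for each strain's mean. The deletion arrays lie above all wild-type arrays at 6 pairs, TKL2/TKL1 and PYC1/PYC2 among them, and below at ADH2/ADH1 and ADH5/ADH1.

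Regulators of these genes and further enzymes of the pathway were read from lists chosen with earlier results of these data known. Of their 88 tested genes, 15 rose and 21 fell (40.9%, against 32.6% of all genes), with a median of -0.15. Among 7 regulators, 2 rose and 2 fell (28.6% each, against 16.3% of all genes). GCR1, the main activator of glycolytic genes, had 394, 404 and 478 in the wild type, against 234, 266 and 227 in the mutant (log2 fold change -0.81, SE 0.16, limma adjusted p = 0.00522). TYE7, another activator of glycolytic genes, had 73.8, 59.3 and 62.5 in the wild type, against 127, 115 and 181 in the mutant (log2 fold change 1.09, SE 0.21, limma adjusted p = 0.00472). STB5, an activator of pentose phosphate genes, had 245, 265 and 203 in the wild type, against 134, 123 and 82.4 in the mutant (log2 fold change -1.09, SE 0.22, limma adjusted p = 0.00492). For none of these 3 genes did the strains overlap. The suffix of the GCR1 probe set marks a shared set, and the GCR1 call was lost on the deposited scale (-1.11, adjusted p = 0.0547). STO1, the large subunit of the cap-binding complex, also goes by GCR3 in the gene table, a name given for glycolysis regulation, and rose by 0.59 (adjusted p = 0.0169). TYE7 and STO1 lost their calls on the deposited scale too, and STO1 also without wild-type replicate 1 or wild-type replicate 3. With the station block GCR1 was at -0.98, adjusted p = 0.0318, whereas TYE7 (1.15, adjusted p = 0.0576), STB5 (-0.87, adjusted p = 0.107) and STO1 (0.65, adjusted p = 0.0968) lost their calls. RAP1 was at 0.16, PDC2, an activator of pyruvate decarboxylase genes, at -0.37 and REB1 at -0.26, none of them called under any of the 19 alternatives.

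Of 22 further enzymes of the pathway, 4 rose (18.2%) and 2 fell (9.09%), against 16.3% of all genes in each direction (median 0.01). GPM2, a homologue of phosphoglycerate mutase, had 38.0, 46.4 and 30.2 in the wild type, against 197, 140.2 and 202 in the mutant (log2 fold change 2.24, SE 0.23, limma adjusted p = 0.000242), while GPM1 was not called. EMI2, a homologue of glucokinase, rose by 0.81 (adjusted p = 0.006) and YDL124W, a reductase gene that uses NADPH, by 0.78 (adjusted p = 0.0051). ICL1, the isocitrate lyase gene of the glyoxylate cycle, had 482, 659.8 and 547 in the wild type, against 171, 142 and 132 in the mutant (log2 fold change -1.92, SE 0.18, limma adjusted p = 0.000185). GPM2 and ICL1 were called under every alternative that tested them. EMI2 lost its call with the station block (0.84, adjusted p = 0.0654) and on the deposited scale (0.55, adjusted p = 0.431), and YDL124W on the deposited scale. Of 9 glycerol genes, 2 rose and 2 fell (22.2% each, against 16.3% of all genes, median 0.02). GCY1, a glycerol dehydrogenase gene, was at 0.91 and GPD2 at 0.63, while the glycerol phosphatase gene GPP2 was at -0.64 and the glycerol channel gene FPS1 at -0.50. GPD2 and FPS1 lost their calls under 10 and 9 of 19 alternatives, GPP2 with the station block (-0.78, adjusted p = 0.0578) and on the deposited scale (-0.82, adjusted p = 0.162), and GCY1 on the deposited scale and without a filter on dim probe sets.

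HXK1, PYK2, ADH2, ACS1, PCK1 and FBP1 are some of the 44 genes known as glucose-repressed, and the group may be incomplete. Other such genes were read beside them. HXK1 and PYK2 rose, ADH2 fell, ACS1 and PCK1 were not called and FBP1 was not tested. Of 14 tested glucose-repressed genes outside the 44 (median -0.61), 0 were higher and 8 lower at an unadjusted limma p under 0.05. Of all 5257 tested genes, 1165 were higher and 1191 lower at that threshold. By limma's adjusted p, none of the 14 rose and 5 fell, against 16.3% of all genes called higher and 16.3% lower. Beside ICL1 these were the lactate permease gene JEN1 (-0.95, adjusted p = 0.00521), the lactate dehydrogenase gene CYB2 (-1.01, adjusted p = 0.00701), the hexose transporter gene HXT5 (-0.75, adjusted p = 0.024) and the carnitine acetyl carrier gene CRC1 (-0.59, adjusted p = 0.0449), named after its value was seen. The CRC1 call was lost under 11 of 18 alternatives, including the station block and leaving out any of the 6 arrays. SUC2, the invertase gene, was at the floor on all 6 arrays. GAL4, from the same list, was also too dim to be tested. It had 19.4, 8.25 and 13.8 in the wild type, against 26.8, 31.3 and 25.4 in the mutant, with no overlap. At the other genes of that list under the filter, SFC1, ADY2 and POX1, the strains overlapped. Of 18 genes of the glucose repression pathway, 5 rose (27.8%) and 3 fell (16.7%), against 16.3% of all genes in each direction (median 0.21). CAT8, of the same list, was too dim to be tested. It had 14.25, 13.9 and 8.25 in the wild type, against 17.8, 26.2 and 25.5 in the mutant, with no overlap. MIG1, the main repressor, rose by 0.75 (adjusted p = 0.0125), the corepressor gene TUP1 by 0.75 (adjusted p = 0.00821) and HAP4, an activator of respiratory genes, by 0.62 (adjusted p = 0.0166). SIP4, an activator of gluconeogenic genes, had 78.8, 79.8 and 79.6 in the wild type, against 23.0, 36.2 and 32.3 in the mutant (log2 fold change -1.41, SE 0.23, limma adjusted p = 0.00199). MIG1, TUP1 and HAP4 lost their calls on the deposited scale, and TUP1 (0.80, adjusted p = 0.0697) and HAP4 (0.64, adjusted p = 0.12) also with the station block; HAP4 lost its call without wild-type replicate 1 as well (0.56, adjusted p = 0.0621), while SIP4, JEN1 and CYB2 were called under every alternative that tested them.

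Of 19 stationary-phase and stress genes, 3 rose (15.8%) and 6 fell (31.6%), against 16.3% of all genes in each direction (median -0.10). GAC1, a phosphatase subunit of glycogen synthesis, rose by 1.58 (adjusted p = 0.00199), the cell wall gene SPI1 by 1.03 (adjusted p = 0.00313) and SOL4, a 6-phosphogluconolactonase gene, by 0.77 (adjusted p = 0.00783), and RTN2 was at -0.90 (adjusted p = 0.00919). In the fit with the station block, SPI1 (0.86, adjusted p = 0.0731), SOL4 (0.60, adjusted p = 0.137) and RTN2 (-1.02, adjusted p = 0.0654) lost their calls, as SPI1 and SOL4 did on the deposited scale, while GAC1 was called under every alternative that tested it. Of 8 zinc-responsive genes outside the 44, none rose by limma and 2 fell (25%), against 16.3% of all genes in each direction. At an unadjusted limma p under 0.05, 0 were higher and 2 lower, beside 1165 and 1191 of all 5257 tested genes. Their median was -0.23, and ADH4 rose. The zinc transporter gene ZRT1 was at -0.39 (adjusted p = 0.0208), though at 0.07, adjusted p = 0.783 with the arrays scaled to one median, and ZRG17, another zinc transporter gene, was at -0.64 (adjusted p = 0.0272). ZRT1, HXT5 and ZRG17 lost their calls under 10, 8 and 7 of 19 alternatives, the station block among them. The part of these genes in the changes above was not tested.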

How the data were processed

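Total RNA of 3 wild-type and 3 cbc2 deletion samples was measured on 6 arrays. The authors' deposited values are linear intensities, 1 for each of 9335 probe sets and array; how they were summarised or scaled is not given in the sources used here. Run information, an other kind of deposited file, was read per the file headers only for the fluidics station and the batches and order of scanning.

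From these, the intensities were quantile normalised, raised to a floor at the 10th percentile (8.25) and log2 transformed. The log2 values were thus computed here from the deposited intensities. Controls (60 probe sets) and, among the others, the dimmest 25% were dropped, and the strains were compared in R 4.3.3 with limma 3.58.1 (a linear fit, then eBayes with a trend). Adjusted p-values are limma's, by Benjamini-Hochberg over 6956 probe sets. The procedure was tested on simulated data. The median SE was 0.20 on the log2 scale, and the number of arrays limits the precision. Probe sets were named from a platform annotation table (6504 with 1 symbol, 328 with several, 2503 with none) with symbols updated through gene IDs of assembly R64. Where a gene had several probe sets, the brightest with a plain name was used, and one whose suffix marks cross-hybridisation only in the absence of a plain one; no gene was named from a probe set with several symbols. Isozyme ratios were tested by exact permutation. A planned search for promoter motifs was not run, as no sequence was used here. The genes, lists and pairs were chosen with earlier results of these data known. The named genes are all listed members, CBC2, STO1 and up to 4 called genes of smallest p from each further list. RAP1, PDC2, REB1, SUC2, GAL4, CAT8, SFC1, ADY2, POX1, CRC1 and ALD5 were named beyond this rule, after their values were seen. The alternatives were other scalings, floors, filters, variance models, blocks, array weights, averaged probe sets and leaving out each array. The scan day block and leaving out deletion replicate 2, the only array of its scan day, gave the same changes. They are counted as separate alternatives but are not separate checks.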

Additional observations from a re-analysis of the deposited data

How the results depend on the processing

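Of the 13 called genes, HXK1 and ADH4 kept their call under all 19 alternatives, and HXK2, GLK1, PYC1, RPE1, RKI1 and ALD4 lost it only on the deposited scale, where the threshold was passed by 10.5% of probe sets instead of 31.4%. No called gene of the 44 changed its direction. Replicate numbers gave no clear sign of pairing the arrays: deviations of same-numbered arrays correlated at -0.23, -0.09 and 0.08. Deviations from a strain's mean are tied together, so these values cannot exclude a pairing. With the replicate block 11 of the genes were called higher and 1 lower. The number called higher was 12; it was 2 on the deposited scale and 9 to 14 with an array left out. The number called lower was 1; it was 0 on the deposited scale, without a filter on dim probe sets and with the station block, 3 with array weights, and 0 to 2 with an array left out. Of the further pathway genes, 15 were called higher and 21 lower; on the deposited scale these were 2 and 6, with the station block 5 and 5, and 12 were lower with the arrays scaled to one median and 12 to 16 with an array left out. Over all tested probe sets, 728 were called on the deposited scale and 675 with the station block, instead of 2187. The cause of these shifts was not tested.

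The values that changed sign belong to genes that were not called, and to ZRT1. On the deposited scale PDC5 was at -0.090, GCR2 at -0.16, GND2 at -0.094, TKL1 at 0.0067, RAP1 at -0.15 and ACS1 at -0.18. With the arrays scaled to one median PGI1 was at 0.14, TPI1 at 0.11, TDH3 at 0.31, PGK1 at 0.27, ENO1 at 0.30, ENO2 at 0.33, CDC19 at 0.18, ADH5 at 0.014, ZWF1 at 0.20, SOL3 at 0.13, TKL1 at 0.34, ACS2 at 0.29 and ZRT1 at 0.070. With array weights PFK2 was at -0.0011. With the station block PFK2 was at -0.0069, ENO2 at 0.091, PDC5 at -0.27, ADH5 at 0.0036, ZWF1 at 0.32, REB1 at 0.12, ACS1 at -0.060 and ACS2 at 0.16, and in the fit with a scan day term ENO1 was at 0.023 and PDC1 at -0.019. With an array left out, ACS1 ran from -0.17 to 0.53, ACS2 from -0.21 to 0.0098, ENO1 from -0.25 to 0.023, PDC1 from -0.042 to 0.12, PDC5 from -0.15 to 0.31, PFK2 from -0.020 to 0.069, PGK1 from -0.35 to 0.024, TKL1 from -0.15 to 0.025 and ZWF1 from -0.28 to 0.046. Of the isozyme ratios, PFK1 over PFK2 was at -0.011, PDC5 over PDC1 at -0.23 and ACS1 over ACS2 at -0.14 on the deposited scale. With an array left out, ACS1 over ACS2 ran from -0.16 to 0.69, ADH3 over ADH1 from -0.21 to 0.0098, ENO1 over ENO2 from -0.11 to 0.15, GND2 over GND1 from -0.38 to 0.14, HXK2 over GLK1 from -0.057 to 0.14 and PDC5 over PDC1 from -0.11 to 0.34. The number of arrays, 3 a strain, limits the precision of all values.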
